A study of Mus musculus with 12 samples.

Results

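The 44 genes described here encode proteins of the DNA replication machinery, and were taken by exact gene name from the 55335 genes in the count files, where each name occurred once. RNA was sequenced from mouse muscle stem cells (MuSCs), the Pax7-positive precursors of muscle fibers, sorted from the hindlimb of Pax7-ZsGreen mice aged 3 to 6 months by the fluorescence of ZsGreen, a reporter driven by the Pax7 gene. All 4 groups share that reporter strain and sort, and each has 3 libraries. F cells were freshly isolated, and were lysed as they were sorted. Cells of 2d-U and of 5d-U grew uncompressed for 2 and 5 days on plastic coated with Matrigel and fibronectin, in a medium with FGF and serum. 2+3d-C cells grew for 2 days in the same way and then for 3 days under a device that limits cell height from above, so that they have the same time in culture as 5d-U. The comparisons ask how the replication genes differ between compressed and uncompressed cells at the same day, and how both stand against the fresh cells and the day-2 starting point. Neither the labels nor the methods say which animals, sorts or cultures a library came from, so the p-values measure the spread between these libraries, part of which may be technical. The study's reporting summary states that sorted batches were divided at random among the conditions, without saying which libraries share a batch. The main fit treated the libraries as unpaired. The sex of the mice was not given in the sources used here.

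A cell prepares to copy its genome in G1, when the origin recognition complex (ORC), CDC6 and CDT1 load the ring-shaped MCM2-7 helicase onto DNA, a step called licensing. In S phase the kinase CDC7-DBF4 and the firing factors turn each MCM ring into an active CMG helicase with CDC45 and the GINS complex, and the polymerases, the sliding clamp PCNA with its loader, the single-strand binding protein RPA, and FEN1 with DNA ligase 1 copy the strands. Many of these genes are transcribed under E2F factors when a cell leaves quiescence, and adult MuSCs in resting muscle are a textbook case of quiescent cells.

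Libraries had 12540745 to 62424851 reads on genes, and 22635 genes had enough reads for a test, among them all 44 replication genes. Levels are given as RPKM, the RNA-seq unit of reads scaled by exon length and library size, computed from library sizes scaled by TMM and from exon lengths as deposited. A count of 3 reads was taken as the limit of detection, and this limit covers counting error alone, because amplified reads with no molecular identifier can be copies of 1 molecule. Some libraries held reads on autosomal genes that few tissues express, such as those of olfactory receptors (called silent families here). Their density was 5.03 and 7.13 reads per kb in F replicates 4 and 5, 3.81 in 5d-U replicate 1 and 0.634 in 5d-U replicate 6, against 0.00936 to 0.22 in the other libraries. At those densities, 3.41% and 5.47% of the replication reads of F replicates 4 and 5 and 0.482% of those of 5d-U replicate 1 would be expected from such reads.

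The RNA level of the machinery as a whole separated the groups into a low and a high pair. Summed over the 44 genes, the level was 330, 261 and 170 RPKM in the F libraries and 262, 357 and 233 in the 2+3d-C libraries, against 2730, 2580 and 2640 for 2d-U and 2090, 2670 and 2920 for 5d-U. The F and 2+3d-C ranges of this sum overlapped, as did those of 2d-U and 5d-U, and the low and high pairs did not. The sum is carried by a few abundant genes, such as Pcna with 107 of the 357 RPKM in 2+3d-C replicate 5. The median over the 44 genes was 2.97, 3.24 and 1.85 RPKM in F and 1.32, 1.67 and 1.84 in 2+3d-C, where the groups did not overlap, and 31.5 to 32.9 and 23 to 31.4 RPKM in the 2d-U and 5d-U libraries. In bulk RNA, fewer cells that express a gene and less RNA per cell cannot be told apart.

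**Figure D1:**
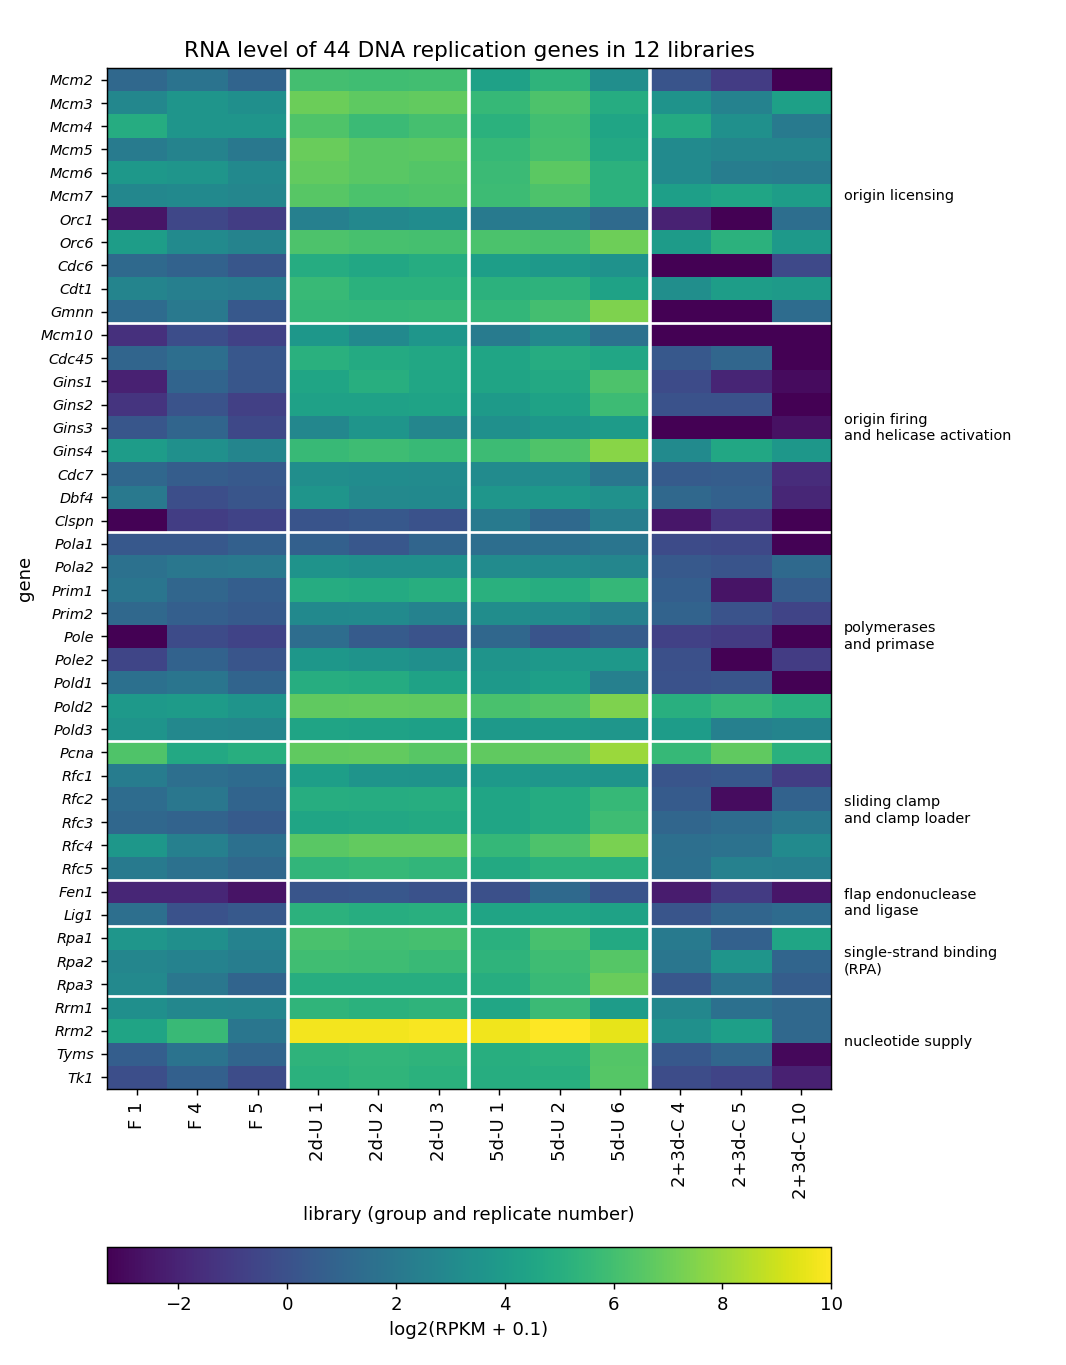
Level of each of the 44 genes (rows, by role) in each of the 12 libraries (columns, by group and replicate number), colored on a log2(RPKM + 0.1) scale; the darkest cells are libraries with no or almost no reads. The 2d-U and 5d-U columns are brighter than the F and 2+3d-C columns in nearly every row, and Rrm2 is the brightest row in the 2d-U and 5d-U columns.

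The start regions of these genes are described before their values, and no relation between their sequence and the fold changes was tested. RefSeq windows of 300 bases, 250 before and 50 after each annotated start (GRCm38.p6), were on hand for 36 of the 44 genes; Mcm4, Gmnn, Gins1, Gins2, Gins4, Prim2, Pole and Rfc2 had none. The windows were searched on both strands for the E2F words TTTCCCGC, TTTCGCGC, TTTGCCGC and TTTGGCGC, for CCAAT, for the GC box GGGCGG and for TTTGAA, the letters of the cell cycle homology region (CHR). At least 1 E2F word stood in a window of 15 of the 36 genes (41.7%), against 704 of 27025 genes with a window of the same length (2.6%). The share was 77.8% among the licensing genes (7 of 9), 57.1% among polymerases and primase (4 of 7), and 0 of 4 among the genes of nucleotide supply. TTTGAA was in 19.4% of the replication genes, near the 20.2% of all genes, and in 10 of 15 mitosis genes (66.7%), of which 1 held an E2F word. CCAAT was found in 61.1% of the replication genes against 41.1% of all genes, and the GC box in 75% against 38.2%.

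**Figure D2:**
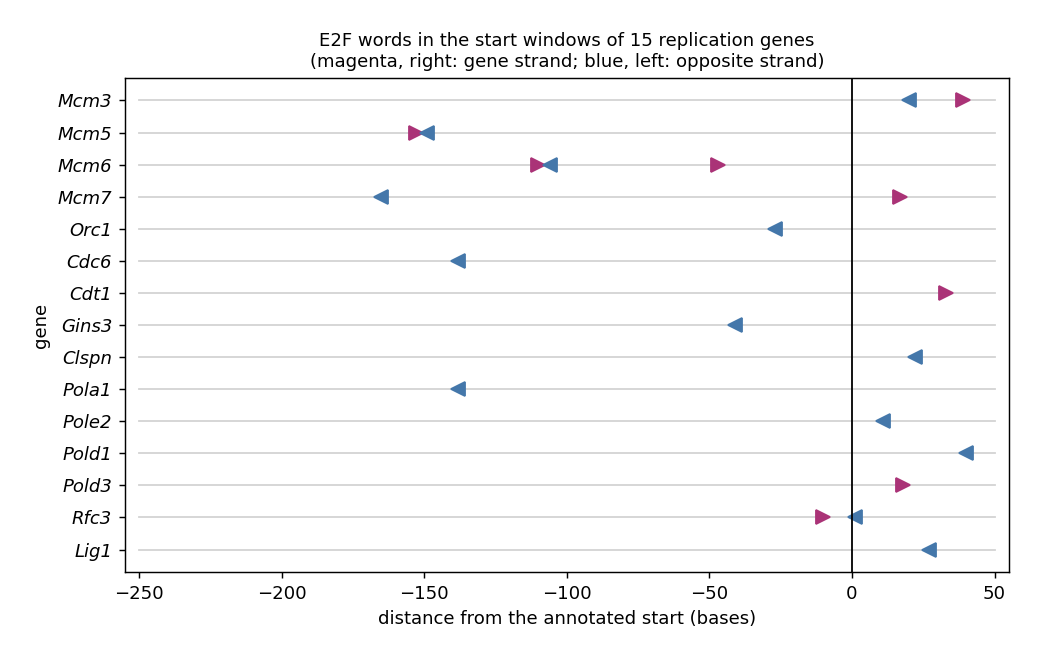
Position of each E2F word (triangle, at its first base) relative to the annotated start in the 15 replication genes that hold one, with triangles to the right for the gene strand and to the left for the opposite strand. The words lie between 165 bases before and 40 bases after the start, and the words of Mcm5, and those of Mcm6 farther from its start, overlap on opposite strands.

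4 windows with E2F words are printed below, those of Mcm5 and Mcm6, where a word on one strand overlaps a word on the other, of Rfc3, with words on both sides of the start, and of Gins3, which was at or under the limit of detection after compression. They lie at chr8:75109259-75109558 on the plus strand, chr1:128359656-128359955 and chr5:151651159-151651458 on the minus strand, and chr8:95633309-95633608 on the plus strand. The windows of Rrm2 (chr12:24708004-24708303, plus strand) and Tk1 (chr11:117825965-117826264, minus strand), both without an E2F word, follow as examples of the genes of nucleotide supply. Each is written 5′ to 3′ on the gene strand, and capitals mark E2F words on either strand.
Mcm5: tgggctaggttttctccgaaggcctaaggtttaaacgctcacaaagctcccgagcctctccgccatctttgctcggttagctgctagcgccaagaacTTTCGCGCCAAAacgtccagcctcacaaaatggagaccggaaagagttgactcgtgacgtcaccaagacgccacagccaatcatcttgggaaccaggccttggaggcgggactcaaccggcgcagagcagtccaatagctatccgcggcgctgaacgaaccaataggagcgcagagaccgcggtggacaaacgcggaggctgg
Mcm6: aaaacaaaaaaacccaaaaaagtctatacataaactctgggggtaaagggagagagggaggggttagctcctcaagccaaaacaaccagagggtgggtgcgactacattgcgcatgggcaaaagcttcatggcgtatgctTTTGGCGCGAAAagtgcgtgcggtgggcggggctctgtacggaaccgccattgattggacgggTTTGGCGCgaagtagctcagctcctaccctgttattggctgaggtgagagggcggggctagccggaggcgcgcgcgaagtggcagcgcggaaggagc
Rfc3: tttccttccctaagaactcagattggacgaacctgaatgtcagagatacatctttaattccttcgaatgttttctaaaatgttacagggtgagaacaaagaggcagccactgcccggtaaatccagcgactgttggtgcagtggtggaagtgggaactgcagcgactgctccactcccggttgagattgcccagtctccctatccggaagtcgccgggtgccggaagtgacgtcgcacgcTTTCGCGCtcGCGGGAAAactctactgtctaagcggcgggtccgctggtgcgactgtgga
Gins3: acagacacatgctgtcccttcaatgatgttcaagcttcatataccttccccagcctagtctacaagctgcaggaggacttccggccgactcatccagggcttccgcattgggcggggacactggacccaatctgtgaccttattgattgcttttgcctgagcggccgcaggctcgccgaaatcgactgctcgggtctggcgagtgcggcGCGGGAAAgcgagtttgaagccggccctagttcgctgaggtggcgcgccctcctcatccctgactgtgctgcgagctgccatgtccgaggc
Rrm2: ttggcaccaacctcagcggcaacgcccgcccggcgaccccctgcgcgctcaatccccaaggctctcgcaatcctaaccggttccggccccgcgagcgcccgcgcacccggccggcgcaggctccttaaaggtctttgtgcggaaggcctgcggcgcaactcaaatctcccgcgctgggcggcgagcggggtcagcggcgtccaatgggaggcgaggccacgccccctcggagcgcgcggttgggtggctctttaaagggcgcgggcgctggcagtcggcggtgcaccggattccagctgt
Tk1: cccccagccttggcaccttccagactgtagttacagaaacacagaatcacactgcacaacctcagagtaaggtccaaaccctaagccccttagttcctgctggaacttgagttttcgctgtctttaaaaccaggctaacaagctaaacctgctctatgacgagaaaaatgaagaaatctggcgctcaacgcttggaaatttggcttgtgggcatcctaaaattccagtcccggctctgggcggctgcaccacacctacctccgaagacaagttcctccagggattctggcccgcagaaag
A match is a description of these letters, and absence says only that the letters are not in the window.

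Compressed cells were compared with uncompressed cells of the same day. In 2+3d-C against 5d-U, 37 of the 44 replication genes were lower and 0 were higher at an adjusted p under 0.05, against 13.4% of all tested genes lower and 9.14% higher (edgeR's quasi-likelihood test, two-sided, Benjamini-Hochberg adjustment over 22635 genes). All 44 fitted log2 fold changes were below 0, with a median of -3.44 against -1.05 over all tested genes. Every 2+3d-C library was below every 5d-U library for 41 of them, an ordering that 29.7% of all tested genes showed. The genes not called were Mcm4, Orc1, Pola1, Pole, Pold3, Pcna and Fen1, and 41 of the 44 were lower at an unadjusted p under 0.05. When each of the 12 libraries was left out in turn, 33 of the 37 kept their call in every fit. The exceptions were Cdt1, called in 2 of 12 fits (highest adjusted p = 0.162), Pold2 in 9 of 12 (0.104 at most, lost without 5d-U replicate 6 or 2+3d-C replicates 4 or 10), Rpa1 in 8 of 12 (0.125 at most, lost without 5d-U replicate 2, 2+3d-C replicates 4 or 5 or F replicate 1) and Clspn in 10 of 12 (0.064 at most, lost without 5d-U replicate 6 or 2+3d-C replicate 4).

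Among the licensing genes, 9 of 11 were lower in compressed than in 5d-U cells, with a median log2 fold change of -2.11. Within the MCM2-7 ring the subunits fell by unequal amounts. Mcm2 was at 20, 40.9 and 9.66 RPKM in 5d-U and at 0.987, 0.417 and 0 RPKM in 2+3d-C, where replicate 10 had no read on it. Its fitted log2 fold change was -5.63 ± 1.1 (SE; adjusted p = 0.00244). Mcm5 was at 49.3, 68.1 and 25.9 RPKM in 5d-U and at 8.24, 6.69 and 6.67 in 2+3d-C, and fell by 2.73 ± 0.418 on the log2 scale (adjusted p = 0.000448). Mcm7, with 55.7, 77.8 and 38 RPKM against 18.3, 22.5 and 17.3, fell by 1.56 ± 0.362 (adjusted p = 0.00689). Neither Mcm5 nor Mcm7 overlapped between the groups, whereas Mcm4 did: its 22.9 to 62.6 RPKM in 5d-U reached below the 28.5 RPKM of 2+3d-C replicate 4. Mcm4 was not called (log2 fold change -1.49 ± 0.618, adjusted p = 0.0883). Mcm3, at 48.6, 78.2 and 30.4 RPKM against 11.3, 6.02 and 19, fell by 2.11 ± 0.479 (adjusted p = 0.00603), and Mcm6 by 3.44 ± 0.462 (adjusted p = 0.000174).

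The make-up of the ring's RNA differed with these falls. Of the summed MCM2-7 level, Mcm2 made up 10.8% to 12.4% in the 2d-U libraries, 5.87% to 9.59% in 5d-U, 3.35% to 5.97% in F and 0% to 1.31% in 2+3d-C. Mcm7 made up 24.2%, 44.2% and 33.4% in the 2+3d-C libraries, above its 11% to 23.1% in the 9 others. Mcm4 was the largest share in F replicates 1 and 5 (46.3% and 28.8%) and in 2+3d-C replicate 4 (37.7%), but 8.47% in 2+3d-C replicate 10, where Mcm3 led with 36.6%. The order of the subunits was therefore not shared by the compressed libraries, and these shares were not tested.

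The RNAs of CDT1, the licensing factor, and of geminin (Gmnn), the protein that binds and blocks it, both fell, by unequal fitted amounts. Cdt1 had one of the smallest falls, from 37.8, 39.9 and 20.1 RPKM in the 5d-U libraries to 9.53, 17.1 and 15.2 under compression (log2 fold change -1.23 ± 0.404, adjusted p = 0.0412). Gmnn was at 45.4, 65.7 and 170 RPKM in 5d-U, and had 0, 0 and 80 reads in the 2+3d-C libraries, the last at 2.5 RPKM (log2 fold change -6.77 ± 1.43, adjusted p = 0.00398). This fitted value rests on 2+3d-C replicate 10, without which it was -15.11, a value that depends on the prior count. The ratio of Cdt1 to Gmnn was 0.118 to 0.833 in the 5d-U libraries, 0.757 to 1.06 in 2d-U and 1.27 to 4.14 in F. It was 6.08 in 2+3d-C replicate 10, and in replicates 4 and 5 Gmnn was under the limit of detection, so that the ratio was at least 248 and 69.2. Every 2+3d-C ratio was above every other, and the difference of the ratios was not tested. Cdc6, the loader of the helicase, was at 17.4, 14.8 and 10.9 RPKM in 5d-U and at 0, 0 and 0.682 in 2+3d-C (log2 fold change -5.93 ± 1.3, adjusted p = 0.00482), and without replicate 10, the only compressed library with reads on it, the fitted value was -14.24. Of the ORC subunits, Orc6 fell by 2.05 ± 0.497 on the log2 scale (adjusted p = 0.00885; 76.4, 73.5 and 133 RPKM in 5d-U, 15.9, 37.6 and 14.7 in 2+3d-C), and Orc1, at 2.36 to 4.56 RPKM in 5d-U, was 0.14, 0 and 2.68 RPKM in 2+3d-C and was not called (adjusted p = 0.208).

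All 9 genes of origin firing and helicase activation were lower in 2+3d-C cells than in 5d-U (median log2 fold change -4.98). They included Mcm10 (chr2:4989714-5012791, minus strand), whose protein helps start the CMG helicase. Mcm10 was at 4.61, 7.34 and 3.03 RPKM in 5d-U and had 0 reads in each 2+3d-C library, at least 207-fold lower when set against 3 reads in each library (adjusted p = 9.83e-06). GINS subunit Gins3 (chr8:95633453-95645060, plus strand) was at 10.2, 13.3 and 15.9 RPKM in 5d-U and had 0, 0 and 3 reads in 2+3d-C, at least 192-fold lower (adjusted p = 6.75e-05). Both genes were thus at or under the limit of detection in all 3 compressed libraries. Gins1 (chr2:150905400-150931280, plus strand) was at 21.7, 26.2 and 79.2 RPKM against 0.717, 0.159 and 0.0301, the last 2 being 2 reads and 1 read (log2 fold change -6.97 ± 1.13, adjusted p = 0.000696; -9.12 without 2+3d-C replicate 4). Gins4, another subunit of the complex, was detected in every library, and was at 56.6, 80.2 and 201 RPKM in 5d-U and at 8.09, 25.4 and 13.3 in 2+3d-C (log2 fold change -2.85 ± 0.583, adjusted p = 0.00313). The kinase pair fell less than most of this class, Cdc7 by 2.81 ± 0.673 and its activator Dbf4 by 3.22 ± 0.789 (adjusted p = 0.00827 and 0.00952). Clspn, whose protein travels with the fork and relays the checkpoint signal, was at 4.42, 2.24 and 5.02 RPKM in 5d-U and at 0.0757, 0.319 and 0 in 2+3d-C (log2 fold change -4.98 ± 1.44, adjusted p = 0.023). Cdc45 fell by 4.63 ± 1.04 (adjusted p = 0.00585). For Gins2, 67.3% of the exon length is shared with exons of Gse1, and because reads were counted without strand its counts are uncertain.

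Of the 9 polymerase and primase genes, 6 were lower. Prim1, the catalytic primase subunit that lays down the RNA primer, was at 34.7, 32 and 47.5 RPKM in 5d-U and at 1.47, 0.0625 and 1.35 in 2+3d-C (log2 fold change -5.27 ± 0.782, adjusted p = 0.000362). Pold2, an accessory subunit of polymerase delta and the most abundant RNA of this class, was at 71.5, 82.9 and 172 RPKM against 34.3, 46.4 and 33.3 (log2 fold change -1.52 ± 0.398, adjusted p = 0.014). Pold3, another accessory subunit, was the member with the smallest difference, at 14.3, 15.1 and 12.7 RPKM in 5d-U, against 16.5, 5.51 and 6.39 in 2+3d-C, and its groups overlapped (log2 fold change -0.56 ± 0.452, adjusted p = 0.337). The catalytic subunit of the same enzyme, Pold1, fell by 4.26 ± 1.03 (adjusted p = 0.00896), so that the subunits of polymerase delta ranged from no call to a fitted fall of that size. Among the accessory subunits, Pole2 of polymerase epsilon fell by 4.88 ± 0.917, Prim2 of primase by 2.81 ± 0.537 and Pola2 of polymerase alpha by 2.38 ± 0.423 (adjusted p = 0.00188, 0.00208 and 0.00129). Pole and Pola1, the catalytic subunits of polymerases epsilon and alpha, were low in every group (at most 2.62 and 3.52 RPKM) and were not called.

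The sliding clamp and its loader are described next. PCNA is the clamp that holds polymerases on DNA. Pcna (chr2) was at 109, 113 and 258 RPKM in 5d-U and at 49, 107 and 35 in 2+3d-C, with 2+3d-C replicate 5 just below the lowest 5d-U library (log2 fold change -1.33 ± 0.537, adjusted p = 0.083). All 5 subunits of replication factor C, which opens the clamp and loads it, were called lower, with log2 fold changes of -2.85 (Rfc5) to -5.01 (Rfc2). Rfc4, the most abundant, was at 46.6, 78.5 and 163 RPKM against 2.81, 3.15 and 8.29 (log2 fold change -4.33 ± 0.683, adjusted p = 0.000557). Whether Pcna fell less than the loader was not tested. Lig1, the ligase that seals Okazaki fragments, went from 22.1, 22.8 and 20.1 RPKM to 1.06, 1.92 and 2.47 (log2 fold change -3.58 ± 0.509, adjusted p = 0.000265). Fen1 shares 84.2% of its exon length with Gm10143 and Tmem258, stood at 2.25 RPKM or less in every library, and is not interpreted here. All 3 RPA subunits were lower, among them Rpa2 with 40.9, 58.9 and 90.2 RPKM against 3.68, 12.1 and 1.97 (log2 fold change -3.43 ± 0.599, adjusted p = 0.00115). Rpa3, the smallest subunit, was at 31.2, 52.5 and 123 RPKM against 1.12, 3.3 and 1.45 (log2 fold change -5.18 ± 0.746, adjusted p = 0.000294). Rpa1, the subunit with the main DNA-binding domains, was at 35, 70.4 and 27.2 RPKM against 4.21, 1.69 and 22.4, so that 2+3d-C replicate 10 lay close to the lowest 5d-U library (log2 fold change -2.23 ± 0.726, adjusted p = 0.0397).

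The 4 genes of nucleotide supply were lower, with a median log2 fold change of -6.01. Rrm2, the subunit of ribonucleotide reductase whose amount limits the enzyme outside S phase, was the most abundant of the 44 genes, with 856, 1030 and 724 RPKM in 5d-U, against 10.3, 18.4 and 2.19 in 2+3d-C (log2 fold change -6.41 ± 0.938, adjusted p = 0.000329). The partner subunit Rrm1 fell by 2.95 ± 0.538 (adjusted p = 0.0015), from 24, 53.3 and 16.3 RPKM to 7.03, 2.92 and 2.15. Thymidine kinase, Tk1, was at 31.8, 32.8 and 91.4 RPKM against 0.743, 0.558 and 0.132 (log2 fold change -6.76 ± 0.733, adjusted p = 3.35e-05), and thymidylate synthase, Tyms, fell by 5.61 ± 1.01 (adjusted p = 0.00137). None of the 4 overlapped between the groups.

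**Figure D3:**
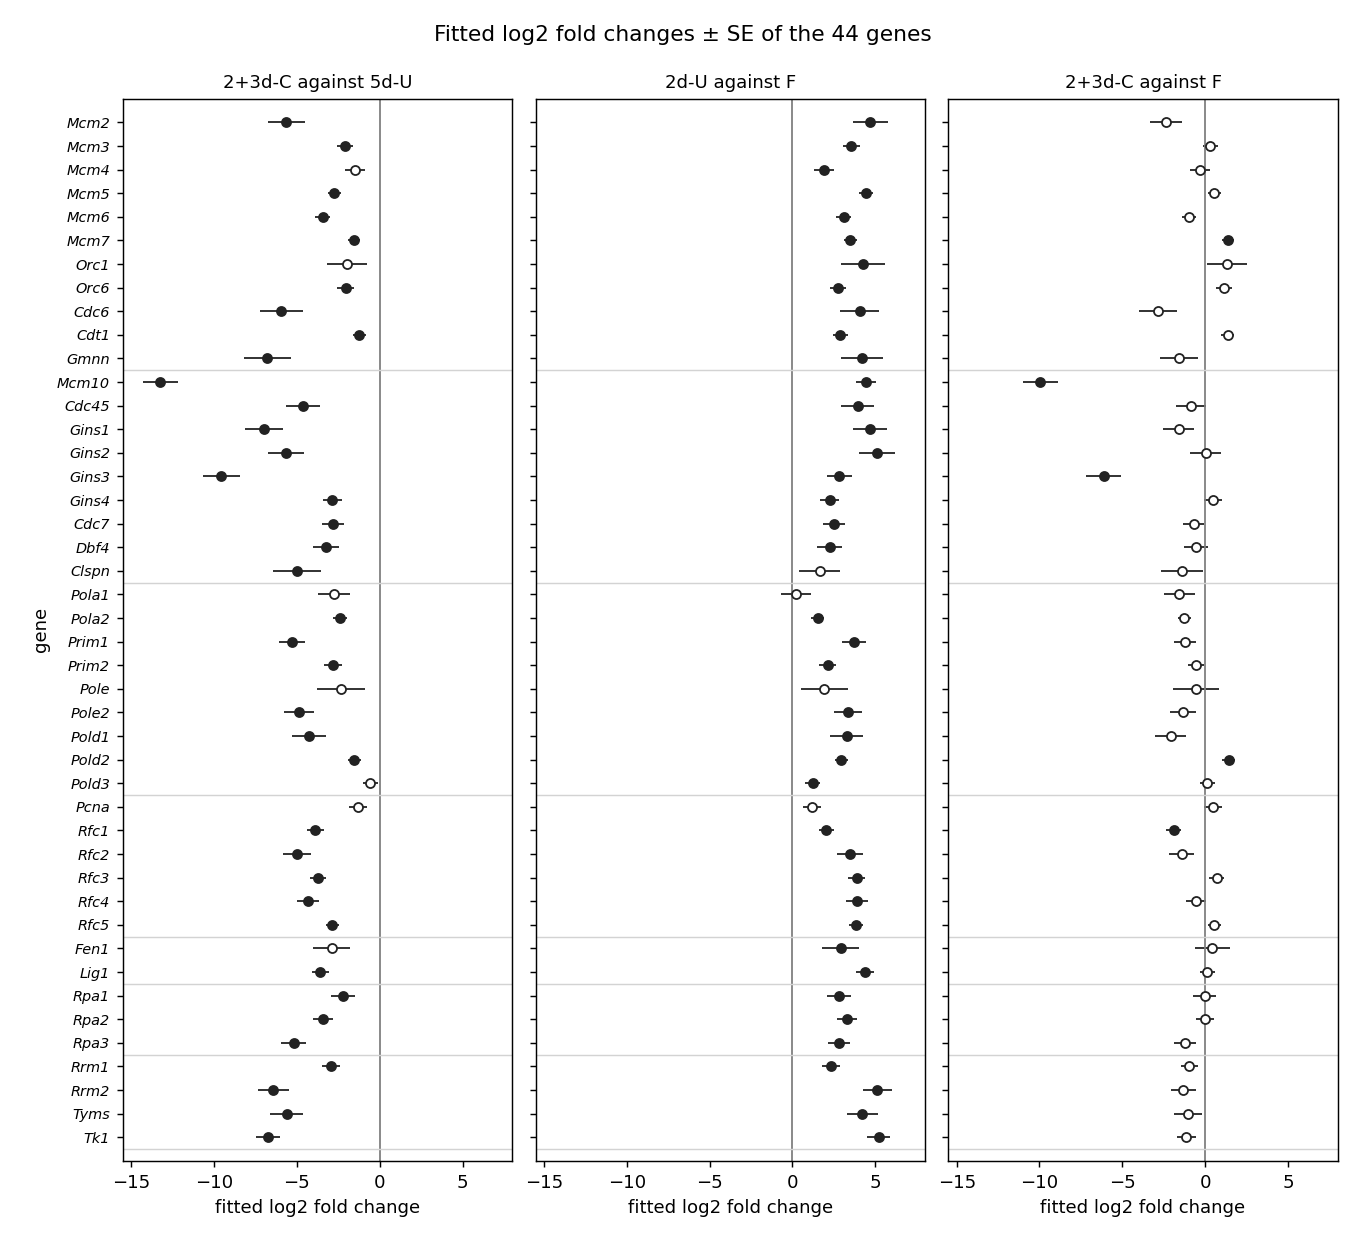
Fitted log2 fold change ± SE (horizontal axis) of each gene (vertical axis, by role) in 2+3d-C against 5d-U, 2d-U against F and 2+3d-C against F, with filled points for genes at an adjusted p under 0.05 and open points for the others. 37 filled points lie left of 0 in the first panel and 40 right of 0 in the second, while 5 are filled in the third; the fitted values of Mcm10 and Gins3 against 2+3d-C depend on the prior count and are not limits.

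Markers of other cell types also differed between these groups. Of 7 endothelial markers, 6 were higher in 2+3d-C cells than in 5d-U, and their summed level was 58.3 to 118 RPKM in 2+3d-C, 0.37 to 5.93 in the 5d-U libraries, 0.486 to 1.53 in 2d-U and 251 to 419 in F. For 7 fibroadipogenic markers, 4 higher, the ranges were 785 to 1340, 39.2 to 59.7, 43.8 to 52 and 1390 to 8790 RPKM in the same order, and for 5 glial markers, 3 higher, 40.7 to 97, 0.787 to 2.47, 0.31 to 0.567 and 92.8 to 149. The 7 markers of smooth muscle and pericytes, 5 higher, summed to 84 to 152, 23 to 328, 28.5 to 38.9 and 247 to 280 RPKM. The 8 immune markers, 1 lower, summed to 4.18 to 58.5, 1.14 to 82.1, 0.529 to 1.05 and 258 to 696 RPKM. In every 2d-U library there were 0 reads on 5 immune markers (Ptprc, Adgre1, Itgam, Lyz2 and Cd79a), 5 of smooth muscle and pericytes (Myh11, Rgs5, Pdgfrb, Kcnj8 and Abcc9), 3 fibroadipogenic (Pdgfra, Lum and Dpt) and 2 glial (Sox10 and S100b), and in every 2+3d-C library on 3 immune markers (Ptprc, Adgre1 and Cd3e). Markers of MuSCs and myoblasts, all 8 detected in every group, summed to 5710 to 6810 RPKM in 2+3d-C, 988 to 1610 in the 5d-U libraries, 962 to 1150 in 2d-U and 905 to 2200 in F. The part of these other cells in the differences of the replication genes was not tested.

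Against the cells from which the compressed cultures started, 2d-U, 37 genes were again lower in 2+3d-C and 0 higher, with 8.63% of all tested genes lower and 16% higher. The median log2 fold change was -3.3 against 0 over all genes, and every 2+3d-C library was below every 2d-U library for 43 of the 44, as for 17.4% of all genes. The genes not called were Orc1, Clspn, Pola1, Pole, Pold3, Pcna and Fen1. Because the 2d-U libraries lay close together, single genes stood out clearly: Mcm2 was at 65, 60.8 and 63.1 RPKM in 2d-U, against 0.987 or less in 2+3d-C (log2 fold change -7.05 ± 1.17, adjusted p = 0.000685). Gmnn was at 47.6, 46 and 47.5 RPKM in 2d-U (log2 fold change -5.77 ± 1.37, adjusted p = 0.00752), and Mcm10, at 13.4, 8.06 and 12.6, was at least 472-fold lower in 2+3d-C (adjusted p = 6.85e-06). Pcna, at 109, 112 and 94.4 RPKM in 2d-U, reached the level of 2+3d-C replicate 5 (107 RPKM), and its log2 fold change was -0.72 ± 0.531 (adjusted p = 0.36). Without single libraries 32 of the 37 calls held in all 12 fits. Mcm4, Orc6, Cdt1, Gins4 and Pold2 lost theirs in 2 to 5 fits (highest adjusted p = 0.0539, 0.0948, 0.0774, 0.123 and 0.0511), each without 2+3d-C replicate 10 or 4 among others. Both comparisons use the same 2+3d-C libraries and are not independent of each other.

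Uncompressed cells gave no called gene between day 2 and day 5: 0 of 44 were higher and 0 lower in 5d-U against 2d-U, where 1.87% and 0.243% of all tested genes were called. At an unadjusted p under 0.05, 0 members were higher and 3 lower. DESeq2 called 0 higher and 2 lower. The member median was a log2 fold change of -0.05, against 1.13 over all genes. Licensing genes had a median of -0.74, and 5 of these 11 had every 5d-U library below every 2d-U library, among them Mcm2 (20, 40.9 and 9.66 against 65, 60.8 and 63.1 RPKM), Mcm3 and Mcm5. Over all 44 genes, 11 were ordered this way and 2 the other way, orderings seen in 5.4% and 31.7% of all tested genes. The members ordered the other way were Clspn, a mediator of the replication checkpoint, and Pola1. For Mcm5 the log2 fold change was -1.16 ± 0.396 with an adjusted p of 0.102, the smallest of the 44. That no gene was called does not show that the levels were equal.

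The 5d-U libraries differed more among themselves than the 2d-U libraries did. The 2d-U group means had small SDs, such as 47 ± 0.881 RPKM for Gmnn and 63 ± 2.11 for Mcm2 (n = 3), where the 5d-U values were 93.8 ± 67.1 and 23.5 ± 15.9. 5d-U replicate 6 was the highest of its group for 19 genes and the lowest for 21. It was highest for Gmnn (170 RPKM against 45.4 and 65.7), Gins1 (79.2 against 21.7 and 26.2), Tk1, Rpa3 and Pcna, and lowest for every MCM2-7 gene, for example Mcm2 at 9.66 RPKM against 20 and 40.9. This split went with gene length. Among the 22 genes at or under the median exon length of 4140 bases, the median log2 ratio of replicate 6 to the mean of the other 5d-U libraries was 0.67, and among the 22 longer genes it was -0.31. Spearman's rho between exon length and this ratio was -0.43 over the 44 genes and -0.46 over 9918 genes whose mean reached 5 CPM in the group, all of which share the same libraries. In 5d-U replicate 1 the sign was opposite, with rho = 0.5 over the 44 genes and 0.43 over all. 2+3d-C replicates 4 and 5 stood apart as well, with rho of 0.52 and -0.52 over 9502 genes and 0.4 and -0.06 over the 44. Such correlations were also present in the other groups. For F replicate 5, rho was 0.41 over the 44 genes and 0.41 over 10826. For 2d-U replicates 1 and 2, it was 0.37 and -0.42 over the 44 and 0.31 and -0.33 over 9069. What gives rise to the length pattern was not tested. Without 5d-U replicate 6, the count of genes called lower in 2+3d-C against 5d-U was 35.

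**Figure D4:**
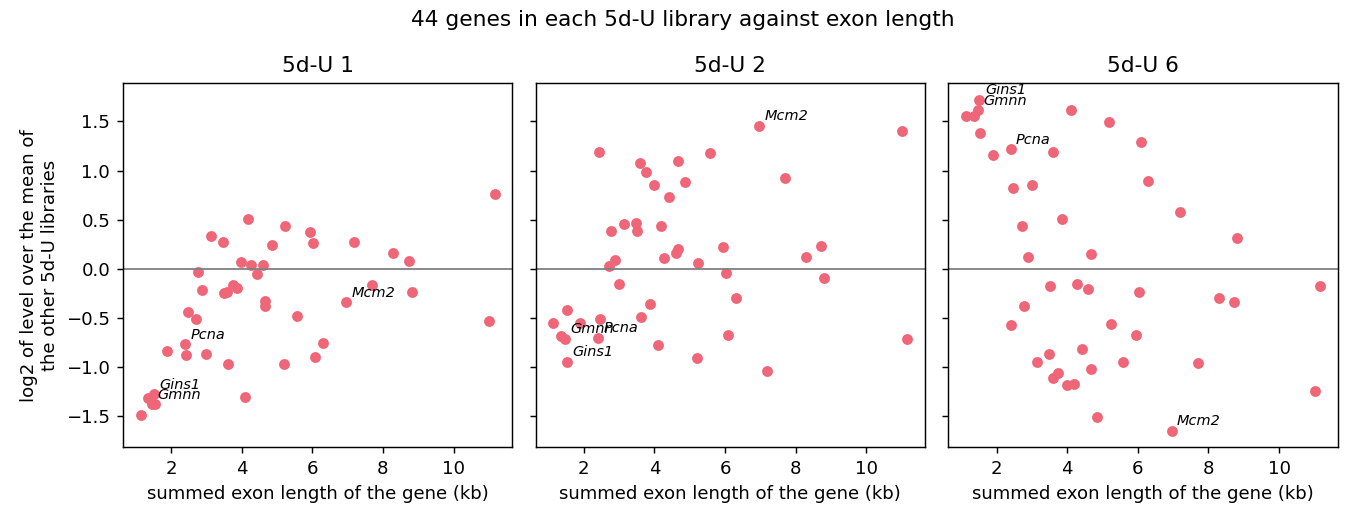
Log2 of the level of each of the 44 genes in a 5d-U library over the mean of the other 5d-U libraries (vertical axis, with 0.1 RPKM added to both) against the summed exon length of the gene in kb (horizontal axis), 1 panel per library and 1 point per gene. In replicate 6 short genes such as Gmnn, Gins1 and Pcna lie above 0 and Mcm2 below, and in replicate 1 the short genes lie below 0.

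Fresh cells were then set against cultured cells. From F to 2d-U, 40 of the 44 genes rose and 0 fell, while 10.6% of all tested genes rose and 33.3% fell. The median log2 fold change was 3.28 against -1.63 over all genes, and 43 of the 44 had every 2d-U library above every F library (20.4% of all genes did). The genes not called were Clspn, Pola1, Pole and Pcna. Of the roles, all 11 licensing genes, Lig1, the 3 RPA genes and the 4 of nucleotide supply rose, with 8 of 9 firing genes, 7 of 9 polymerase genes and 5 of 6 of clamp and loader. The 40 include Fen1, whose reads in F replicates 4 and 5 (13 and 6) were near or below those expected from silent families (12.2 and 17.3). Rrm2 was at 22.2, 51.6 and 3.68 RPKM in F and at 879, 860 and 949 in 2d-U (log2 fold change 5.12 ± 0.881, adjusted p = 0.000911). Tk1 rose from 0.832, 1.57 and 0.755 RPKM to 36.7, 42.5 and 37 (5.2 ± 0.678, adjusted p = 0.000136), and Mcm5 from 4.55, 6.17 and 3.98 to 124, 98.1 and 98.6 (4.44 ± 0.451, adjusted p = 2.76e-05). For each of these 3 genes, every 2d-U library was above every F library. Mcm2 rose from 2.18, 3.25 and 1.84 RPKM in F to 65, 60.8 and 63.1 (4.7 ± 1.05, adjusted p = 0.00444), and Mcm10 from 0.265, 0.781 and 0.5 to 13.4, 8.06 and 12.6 (4.46 ± 0.61, adjusted p = 0.000313). Gmnn was at 2.41, 4.12 and 1.16 RPKM in F and at 46 to 47.6 in 2d-U (4.2 ± 1.26, adjusted p = 0.0203). F held more Cdt1 than Gmnn RNA in each library, with Cdt1 at 6.4, 5.22 and 4.79 RPKM, and Cdt1 rose by 2.9 ± 0.427 on the log2 scale (adjusted p = 0.000309). Rfc4, at 13, 5.55 and 2.89 RPKM in F and 97.1, 111 and 113 in 2d-U, and Prim1, at 3.53, 2.02 and 1.47 against 30.1, 28 and 33.2, rose by 3.91 ± 0.668 and 3.7 ± 0.724 (adjusted p = 0.000862 and 0.00204). F replicate 5 was the lowest F library for 29 of the genes, and was the one with the most silent-family reads. Lig1, at 2.82, 0.941 and 1.2 RPKM in F and 37.8, 31.1 and 33.4 in 2d-U, rose by 4.37 ± 0.527 (adjusted p = 7.91e-05). Pcna was already at 79.7, 26.5 and 32.2 RPKM in F, and at 94.4 to 112 in 2d-U (1.19 ± 0.535, adjusted p = 0.0767).

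29 of the 40 calls held whichever library was left out. Without F replicate 5 Orc1, Gmnn, Gins3, Cdc7 and Pold1 were lost, without 2d-U replicate 1 Pola2, and without F replicate 4 or 5 Cdc6, with adjusted p of 0.0502 to 0.0722. Mcm4, Dbf4, Pold3 and Fen1 were lost in 3 to 9 fits (highest adjusted p = 0.0963, 0.103, 0.135 and 0.145). In F the summed markers of endothelial, fibroadipogenic, immune and glial cells given above were higher than in 2d-U, with all 7 endothelial, all 7 smooth muscle and pericyte, 6 of 7 fibroadipogenic, all 8 immune and all 5 glial markers called lower in 2d-U, and their part in the rise of the replication genes was not tested.

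Between F and 5d-U, 35 genes were higher in 5d-U and 0 lower, against 11.6% and 8.9% of all tested genes, and 43 of the 44 had every 5d-U library above every F library (21.4% of all genes). The genes not called were Mcm4, Orc1, Cdc6, Clspn, Pola1, Pola2, Pole, Pold1 and Pold3. The median log2 fold change of 3.28 stood against -0.41 over all genes. Gmnn (5.19 ± 1.32, adjusted p = 0.0113) and Tk1 (5.63 ± 0.692, adjusted p = 0.00014) were among those with the largest rises. Pcna was called here (1.79 ± 0.544, adjusted p = 0.0292) but not without 5d-U replicate 6 or F replicates 4 or 5 (at most 0.158). With single libraries left out 24 of the 35 calls held in every fit, and besides Pcna those of Mcm2, Gmnn, Cdc45, Gins3, Cdc7, Dbf4, Pole2, Fen1, Rpa1 and Rrm1 did not, each lost without an F library and with adjusted p of 0.0589 to 0.243 at the highest. This comparison shares the F libraries with the one before it.

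Few replication genes were called between compressed and fresh cells. In 2+3d-C against F, 2 of the 44 were higher (1.94% of all tested genes) and 3 lower (4.47%), with a median log2 fold change of -0.64 against -0.76 over all genes. These shares of all genes rested on single F libraries: without F replicate 1, 4.27% were higher and 32% lower, and without F replicate 4, 0.109% and 0.932%, while the members called were 4 and 4 and then 0 and 2. The other 39 were not called, which does not show that they were equal: the SEs ran up to 1.4 on the log2 scale, as for Pole. At an unadjusted p under 0.05 in the same test, 4 members were higher and 8 lower, as were 1835 and 6493 of the 22635 tested genes. Mcm10, at 0.265, 0.781 and 0.5 RPKM in F and without reads in 2+3d-C, was at least 21.4-fold lower (adjusted p = 0.000544). Gins3, at 1.08, 1.95 and 0.654 RPKM in F, was at least 17.9-fold lower (adjusted p = 0.00639). Rfc1, the large subunit of the clamp loader, was at 4.66, 2.78 and 2.41 RPKM in F and at 1.04, 1.16 and 0.44 in 2+3d-C (log2 fold change -1.9 ± 0.471, adjusted p = 0.0326), and lost its call without 2+3d-C replicate 10 or F replicates 4 or 5 (at most 0.0993). Mcm10 and Gins3 kept theirs in all 12 such fits.

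The pair that was higher in 2+3d-C than in F was Mcm7 and Pold2, against the direction of most genes. Mcm7 was at 7.15, 8.05 and 6.77 RPKM in F and at 18.3, 22.5 and 17.3 in 2+3d-C (log2 fold change 1.4 ± 0.361, adjusted p = 0.0364). Pold2 was at 14.5, 15.9 and 12 RPKM against 34.3, 46.4 and 33.3 (1.43 ± 0.397, adjusted p = 0.0471). The groups did not overlap for either gene. Neither call was firm: with single libraries left out, Mcm7 was called in 4 of 12 fits and Pold2 in 3 of 12 (highest adjusted p = 0.129 and 0.164), and each was lost without F replicate 4 or 5 and without any 2+3d-C or 2d-U library. Cdt1 had a like difference, 6.4, 5.22 and 4.79 RPKM in F against 9.53, 17.1 and 15.2, and an adjusted p of 0.0582. 12.6% of the exon length of Mcm7 is shared with Cops6, Ap4m1, Mir25 and Mir93. At the other end were Mcm2 (2.18, 3.25 and 1.84 RPKM in F; log2 fold change -2.35 ± 0.955, adjusted p = 0.111) and Cdc6 (2.25, 1.7 and 1.1 RPKM in F; -2.84 ± 1.14, adjusted p = 0.109), for which every 2+3d-C library was below every F library without a call. In 2+3d-C replicates 4, 5 and 10, 4, 9 and 11 of the 44 genes had 3 or fewer reads, so that for these genes the size of a difference from F was not measurable in those libraries. These counts did not follow depth: the replicates had 62424851, 12540745 and 23495260 reads on genes. Mcm2 had 366, 24 and 0 reads in them. What gives rise to the missing reads was not tested.

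**Figure D5:**
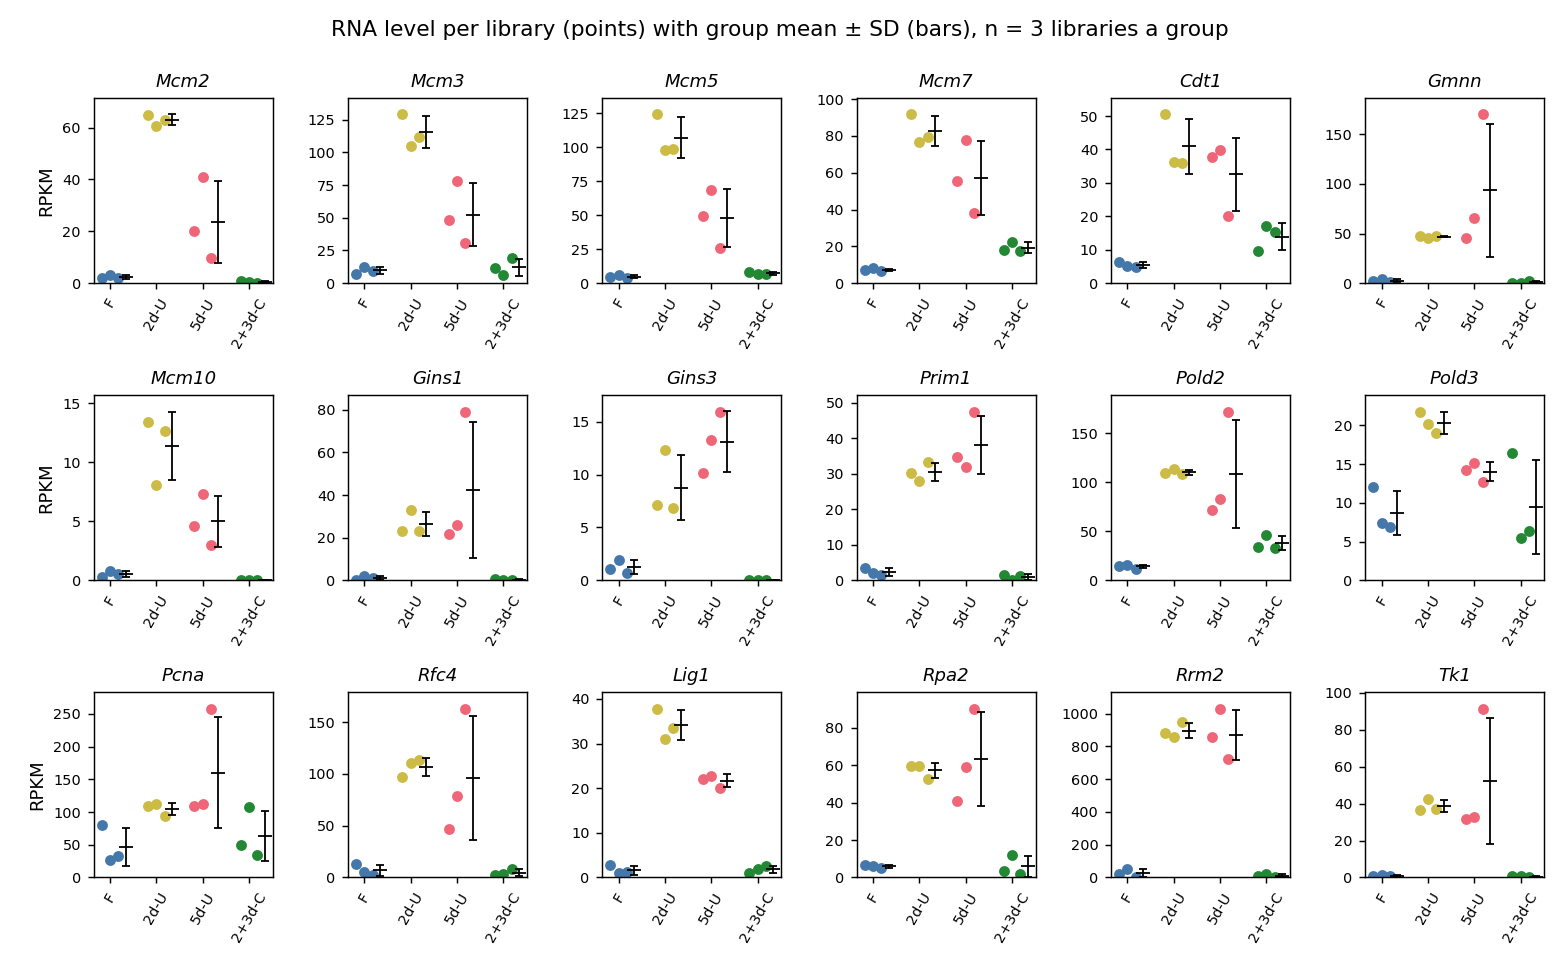
RPKM of 18 of the replication genes in each library (points; linear axes that start at 0), with group mean ± SD (bars, cut at 0) for 3 libraries a group. Mcm10 and Gins3 lie at or near 0 in 2+3d-C, Cdt1, Mcm7 and Pold2 keep part of their level there, and Pold3 and Pcna overlap between groups.

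Mitosis genes were taken as the nearest comparison. All 19 were lower in 2+3d-C cells than in either uncompressed group, 5d-U and 2d-U, with median log2 fold changes of -9.23 and -9.21 (-8.75 and -8.6 with undetected genes at their limit). Summed, they were at 865 to 1420 RPKM in the 5d-U libraries, 1170 to 1220 in 2d-U, 19.8 to 68.2 in F and 3.77 to 7.37 in 2+3d-C. Against F, 14 of these 19 were lower in 2+3d-C, where 3 of the 44 replication genes were, and the summed ranges did not overlap as those of the replication genes did. 7 of the 19 had 3 or fewer reads in every 2+3d-C library. The difference between the lists was not tested.

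Genes that work beside the 44 at the origin and fork, 27 of 28 of them with enough reads, were lower in 2+3d-C cells than in 5d-U in 14 cases and higher in 2. These were 51.9% and 7.41% of the 27, against 13.4% and 9.14% of all tested genes, so that rises were no more frequent than among all genes. Dscc1, a subunit of an alternative clamp loader, had 0 reads in every 2+3d-C library and 5.27, 5.84 and 9.43 RPKM in 5d-U, at least 164-fold lower (adjusted p = 1.33e-05). Dna2, a nuclease of Okazaki fragment processing, was likewise without reads and at least 66.6-fold lower (adjusted p = 0.000122), and Rnaseh2a fell by 4.58 ± 0.493 (adjusted p = 3.3e-05). Tipin, a fork protection factor and the most abundant of the list, was at 161, 170 and 370 RPKM in 5d-U, against 18.6, 51.4 and 29.2 in 2+3d-C (log2 fold change -2.82 ± 0.585, adjusted p = 0.00344). The genes that went the other way were Pold4, the smallest subunit of polymerase delta, and the topoisomerase Top1. Pold4 was at 20.9, 5.25 and 21.1 RPKM in 5d-U, against 48.9, 201 and 181 in 2+3d-C (log2 fold change 3.19 ± 0.684, adjusted p = 0.00425), and Top1 at 19.2, 14.9 and 18.6 against 55.4, 76.4 and 55.3 (1.83 ± 0.444, adjusted p = 0.00915). Of the exon length of Pold4, 24.6% is shared with Gm45928. Both were also higher than in 2d-U (adjusted p = 0.00344 and 0.000676), as was Rif1 (2.07 ± 0.544, adjusted p = 0.0134). That is 11.1% of the list, against 16% of all tested genes. The subunits of polymerase delta thus ranged from a fall in Pold1 to a rise in Pold4 between the same libraries.

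Of 11 genes of replication-coupled chromatin assembly, 6 were lower after compression than in 5d-U and 0 higher, among them Chaf1a (-5.99 ± 0.98, adjusted p = 0.000739), a subunit of the histone chaperone CAF-1, and Uhrf1 (-6.29 ± 1.16, adjusted p = 0.0017), which recruits the maintenance DNA methyltransferase. Of 12 other genes of nucleotide metabolism, 5 were lower and 0 higher. The genes called lower were 54.5% of the first list and 41.7% of the second, against 13.4% of all tested genes. Of all tested genes, 9.14% were higher. Dut, which removes dUTP, was at 104, 117 and 274 RPKM in 5d-U, against 2.49, 12.8 and 3.85 in 2+3d-C (-4.71 ± 0.655, adjusted p = 0.000225), whereas Umps, a gene of pyrimidine synthesis, was at 70.1, 79.3 and 101 against 48.1, 106 and 79.5 (-0.1 ± 0.374, adjusted p = 0.846). Against F, Umps and Shmt1 were higher in 2+3d-C (adjusted p = 0.0321 and 0.0257) and Samhd1, a dNTP hydrolase, was lower (adjusted p = 0.0346).

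In the E2F and pocket protein family, 5 of 13 were lower after compression than in 5d-U and 2 were higher. These were 38.5% and 15.4% of the family, against 13.4% and 9.14% of all tested genes. E2f1, an activator, was at 11.7, 15.5 and 10.8 RPKM in 5d-U, against 0.47, 1.8 and 0.029 in 2+3d-C (-4.11 ± 0.918, adjusted p = 0.0055), and E2f2 fell by 4.74 ± 1.02 (adjusted p = 0.00429). The atypical member E2f8 had 0 reads in each 2+3d-C library and was at least 69.9-fold lower (adjusted p = 0.000183), with E2f7 lower by 6.34 ± 0.92 (adjusted p = 0.000309). The pair that was higher was E2f4 and E2f5, which act mainly as repressors with pocket proteins. E2f5 was at 16.9, 9.05 and 7.77 RPKM in 5d-U, against 41.3, 74.4 and 33.9 in 2+3d-C (2.15 ± 0.542, adjusted p = 0.0113). E2f4 was at 28.5, 21.4 and 26.3 RPKM in 5d-U, against 53.1, 52.7 and 52.2 in 2+3d-C (1.05 ± 0.354, adjusted p = 0.0451), but at 134, 133 and 153 in 2d-U, from which it was lower (-1.41 ± 0.357, adjusted p = 0.0107). E2f4 was the single gene of the family called between 5d-U and 2d-U (-2.47 ± 0.37, adjusted p = 0.00912).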

How the data were processed

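Libraries were made with the SMART-seq v4 kit and sequenced as single reads of 75 bases. The authors deposited 1 table of raw counts per library, made with the nf-core rnaseq pipeline (1.4.2) on mm10 with GENCODE vM23 and featureCounts (1.6.4). Reads were summed over the exons of each gene without regard to strand. A read on exon sequence that genes share therefore cannot be assigned to 1 of them, and the counts of such genes are uncertain. A merged table of the same counts was not used. The cultured cells of the 2+3d-C group were lysed after the device was removed.

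From these counts, genes with enough reads (edgeR's filterByExpr) were scaled by TMM. In edgeR (4.0.16, R 4.3.3), 1 quasi-likelihood fit covered the 4 groups and 12 libraries. Its tests were two-sided, with Benjamini-Hochberg adjustment over 22635 genes and a threshold of 0.05. A prior count of 2 was used for log2 CPM values and not for the fitted fold changes, which used edgeR's default. RPKM used the exon lengths in the files. Total reads on genes ranged from 12540745 to 62424851, where 3 reads are 0.239 and 0.0481 CPM. No 2 libraries held the same counts, and the code was tested on simulated data. Alternatives were DESeq2 (1.42.0), no TMM, other filters, a replicate block, silent-family subtraction, 2 groups alone and leaving out each library.

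The members, roles and gene lists were chosen with earlier results of these data known. By rule, values in every library were given for the most abundant genes of each role, the 3 largest falls (by fitted value) and 3 smallest falls in 2+3d-C against 5d-U and genes called against the direction of most, and for other lists the 3 most abundant, the 3 with the smallest p and those called against the direction; Mcm2, Mcm5, Gmnn, Cdc6, Orc1, Rrm1, Tk1, E2f1, Umps and others were added after their values were seen.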

Additional observations from a re-analysis of the deposited data

How the results depend on the processing

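No fold change of a replication gene reversed a call under any alternative. With the replicate block, the genes called lower in 2+3d-C were 20 against 5d-U and 22 against 2d-U (37 each without it), 0 were higher and 5 lower against F, and the genes called higher than in F were 26 for 2d-U and 18 for 5d-U (40 and 35 without it). Of all tested genes, the shares were 13.7%, 3.69%, 1.19%, 7.47%, 2.6% and 1.91% in that order. 2d-U replicate 3, 5d-U replicate 6 and 2+3d-C replicate 10 share a number with no other library, so the block takes them up. No 2+3d-C library shares a number with a 5d-U or 2d-U library, and these groups are linked through F alone. The lower counts therefore cannot show whether the calls depend on a pairing. Correlations of same-numbered libraries' deviations from their group means over 10766 genes were -0.329 to 0.0986 in 6 pairs. These values cannot show whether same-numbered libraries share a sort or an animal, because libraries also differed within groups, as in the length pattern. In 2+3d-C against F, the 2 genes called higher became 0 without TMM, 0 without a filter, 1 when the mean had to reach 5 CPM, 0 with silent-family reads subtracted and 0 with the 2 groups alone, and 0 to 4 with single libraries left out (4 without F replicate 1, and 0 without F replicates 4 or 5, 2+3d-C replicates 5 or 10 or any 2d-U library). The 3 genes called lower became 6 with DESeq2, 6 without a filter and 1 with the 2 groups alone. Between 5d-U and 2d-U, 0 genes were called lower, against 2 with DESeq2 and 1 without a filter. The cause of these changes was not tested. With single libraries left out, the share of all tested genes called higher in 2d-U than in F was 5.53% to 9.94%, and that called lower in 2+3d-C was 6.39% to 11.1% against 5d-U and 5.09% to 7.57% against 2d-U. Every other count of called replication genes stayed within 1.5 times its value. Scaling shifted the median log2 fold change of the 44 genes by -0.6 (2+3d-C against 2d-U) to 0.12 (2d-U against F) without TMM, and by -0.4 (5d-U against F) to 0.17 (2+3d-C against 5d-U) with DESeq2. Sizes of differences are least certain for the genes near 3 reads, mostly in 2+3d-C and F.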
